A study of Homo sapiens with 2 samples.

Results

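The genes of ISG15 conjugation were examined in single HCT116 cells, a human colon cancer line of epithelial origin, with and without decitabine (DAC). They are 6 of the 33538 genes in the deposited tables, namely *ISG15* itself and 5 enzyme genes, *UBA7*, *UBE2L6*, *HERC5*, *HERC6*, and *USP18*. The 6 genes were selected on their role and with their UMIs, shares of cells, and correlations over cells in these libraries already known, so that these values are given as a description without a test. DAC, a nucleoside drug, depletes DNA methyltransferases by binding them to replicated DNA. DAC-treated cells received the drug at 0.5 μM on day 1 and again on day 3, had it removed on day 5, and were harvested on day 7, and mock-treated cells were handled in parallel without the drug. There was 1 library per condition, so neither condition has a replicate, and all intervals below are exact 95% intervals that cover counting error only.

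ISG15 is a small protein made of ubiquitin-like folds that is joined to other proteins after stimulation of cells with type I interferon. As with ubiquitin, an activating enzyme (E1), a conjugating enzyme (E2), and a ligase (E3) act in turn, and a protease removes the modifier again. The genes of the modifier and of its enzymes are themselves known interferon-stimulated genes, whose transcription is driven through the complex ISGF3 at interferon-stimulated response elements.

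The mock-treated library held 49911689 UMIs in 1783 cells, against 59046165 UMIs in 1751 cells in the DAC-treated library, with medians of 27899 and 35340 UMIs per cell. The libraries shared 12 barcodes. The median mitochondrial share was 17.9% and 18.3% of UMIs, and 311 mock-treated and 319 DAC-treated cells were over 50%. All 5 epithelial markers (*EPCAM*, *KRT8*, *KRT18*, *CDH1*, and *KRT19*) were detected and summed to 4934 UMIs per 1000000 UMIs of a library (CPM) in mock-treated and 7952 CPM in DAC-treated cells, with *EPCAM* lower, at 349 and 222 CPM, and *KRT18* higher, at 2030 and 4280 CPM. Of markers of other cell types, the 5 leukocyte genes summed to 0.641 CPM in mock-treated and 10.4 CPM in DAC-treated cells, of which *CD74* gave 415 of 614 UMIs, and *PTPRC* and *CD3E* were at 0 in mock-treated cells and at 16 and 24 UMIs in DAC-treated cells. The 4 fibroblast genes summed to 10.7 and 19.6 CPM, nearly all from *COL1A1*, and the 3 endothelial genes to 0.120 and 1.91 CPM, and *DCN*, *COL1A2*, *LUM*, *PECAM1*, and *CDH5* were at 0 in mock-treated cells. Their part in the results below was not tested.

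Promoters of 4 of the 6 genes, covering 250 bases before to 50 bases after a transcription start, were taken from RefSeq (GRCh38.p14), with 5 entries in all because *UBE2L6* has a pair of starts. *UBA7* and *USP18* had no entry. The promoters are shown because these known interferon-stimulated genes differ in whether the letters of the response element occur there. The core of the interferon-stimulated response element, GAAANNGAAA, was searched on both strands with overlaps allowed, and matches are in capitals. The *ISG15* entry lies at chr1:1013247-1013546 on the plus strand, that of *HERC5* at chr4:88456869-88457168 on the plus strand, that of *HERC6* at chr4:88378602-88378901 on the plus strand, and that of *UBE2L6* shown here at chr11:57567886-57568185 on the minus strand.
ISG15: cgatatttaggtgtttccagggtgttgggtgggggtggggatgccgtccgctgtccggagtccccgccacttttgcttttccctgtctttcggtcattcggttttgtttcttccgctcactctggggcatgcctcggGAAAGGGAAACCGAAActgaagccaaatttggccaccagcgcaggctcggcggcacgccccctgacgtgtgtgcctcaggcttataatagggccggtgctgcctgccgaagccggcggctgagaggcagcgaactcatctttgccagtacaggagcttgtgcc
HERC5: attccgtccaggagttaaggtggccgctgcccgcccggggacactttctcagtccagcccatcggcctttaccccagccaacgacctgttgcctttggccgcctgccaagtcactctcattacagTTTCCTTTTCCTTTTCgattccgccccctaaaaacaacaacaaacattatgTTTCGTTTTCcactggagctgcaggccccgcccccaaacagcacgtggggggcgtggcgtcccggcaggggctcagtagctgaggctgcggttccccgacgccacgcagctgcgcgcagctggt
HERC6: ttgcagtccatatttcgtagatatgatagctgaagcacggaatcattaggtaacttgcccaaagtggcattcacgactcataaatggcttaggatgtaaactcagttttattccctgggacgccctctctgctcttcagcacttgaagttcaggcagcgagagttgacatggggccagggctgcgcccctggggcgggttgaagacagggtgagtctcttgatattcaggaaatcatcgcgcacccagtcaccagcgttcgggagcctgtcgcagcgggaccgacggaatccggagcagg
UBE2L6: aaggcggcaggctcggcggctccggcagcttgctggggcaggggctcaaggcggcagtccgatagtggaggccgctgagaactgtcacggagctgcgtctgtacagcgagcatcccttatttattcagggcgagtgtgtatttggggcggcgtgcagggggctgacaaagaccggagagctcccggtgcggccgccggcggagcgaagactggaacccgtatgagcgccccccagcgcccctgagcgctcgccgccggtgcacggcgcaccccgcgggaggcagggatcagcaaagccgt

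The core occurred in 1248 (3.57%) of all 34943 RefSeq promoters of this length. *ISG15* had 2 overlapping matches, which began 113 and 107 bases before the start. *HERC5* had 3 matches on the opposite strand, at 125, 119, and 74 bases before the start. Each of these promoters also held the longer form GAAANNGAAACT once, which was found in 0.275% of all promoters. *HERC6* and both entries of *UBE2L6*, the other one at chr11:57567623-57567922, had 0 matches, which says only that these letters were not in these windows. There were 20 CpG sites in the window of *ISG15*, 21 in that of *HERC5*, and 16 in that of *HERC6*, within the interquartile range of all promoters (4–28, median 14). The windows of *UBE2L6* had 32 and 41 CpG sites, at the 81.2nd and 93.3rd percentile.

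*ISG15* (ENSG00000187608, hg38 chr1:1001138-1014540, plus strand) encodes the modifier. Mock-treated cells had 10829 *ISG15* UMIs and DAC-treated cells 75584, which is 217 CPM (213–221) and 1280 CPM (1271–1289). The level was 5.90-fold higher in DAC-treated cells (5.78–6.02), or 2.56 on the log2 scale. Among the 15146 genes with 50 UMIs or more over both libraries, this ratio lay at the 92.5th percentile. The median log2 CPM ratio of these genes was 0.25, so that the ratios of all single genes are to be read against that shift.

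The 6-gene set split by size of the difference. The level of 4 genes, *ISG15*, *HERC5*, *HERC6*, and *USP18*, was at least 2-fold higher after DAC, as was that of 19.0% of the genes with 50 UMIs or more. None was 2-fold lower, against 7.34% of genes, and *UBA7* had too few UMIs to be counted here. Scaled by TMM, 57.7% of the genes past 2-fold were higher rather than lower, against 72.1% with total UMIs, and these 4 genes had log2 ratios of 1.34 to 2.33 after TMM scaling. Since these ratios were known when the genes were selected, nothing is read from these counts.

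**Figure D1:**
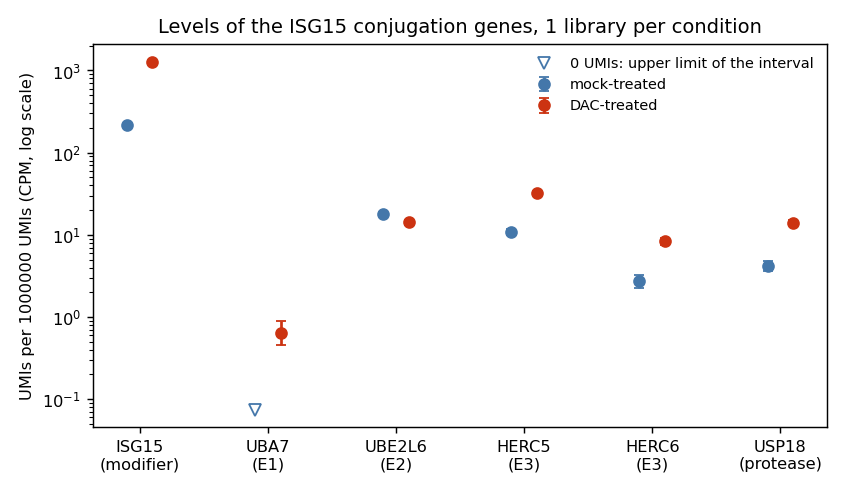
Level of each ISG15 conjugation gene in the mock-treated (blue) and DAC-treated (red) library, in CPM on a log axis, with exact 95% intervals for counting error. *ISG15* (217 and 1280 CPM), *HERC5*, *HERC6*, and *USP18* were higher in the DAC-treated library, *UBE2L6* was lower (17.9 and 14.2 CPM), and *UBA7* was at 0 UMIs in the mock-treated library (open triangle, upper limit of the interval).

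*ISG15* was also widespread without DAC. It was detected, with 1 UMI or more, in 81.0% of mock-treated cells and 89.4% of DAC-treated cells. The median cell had 4 UMIs (interquartile range 1–8) without and 18 UMIs (2–59) with DAC, and the highest cell had 96 and 711 UMIs.

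To remove the difference in depth, each cell was thinned to 10000 UMIs, and cells below that depth, 395 without and 458 with DAC, were left out. *ISG15* was then detected in 78.2% of mock-treated (75.9–80.3) and 93.8% of DAC-treated cells (92.4–95.1), with medians of 2 and 8 UMIs. At 1007 UMIs per cell, where fewer cells reach 1 UMI, the shares were 17.8% and 52.4%. Of DAC-treated cells, 554 (42.8%) had more than 9 *ISG15* UMIs, the 99th percentile of mock-treated cells, and 243 (18.8%) had more than 20, the highest mock-treated value. At the other end, 80 DAC-treated cells (6.19%) had no *ISG15* UMI at this depth. The squared coefficient of variation (CV) beyond Poisson sampling was 0.574 in mock-treated and 1.24 in DAC-treated cells.

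**Figure D2:**
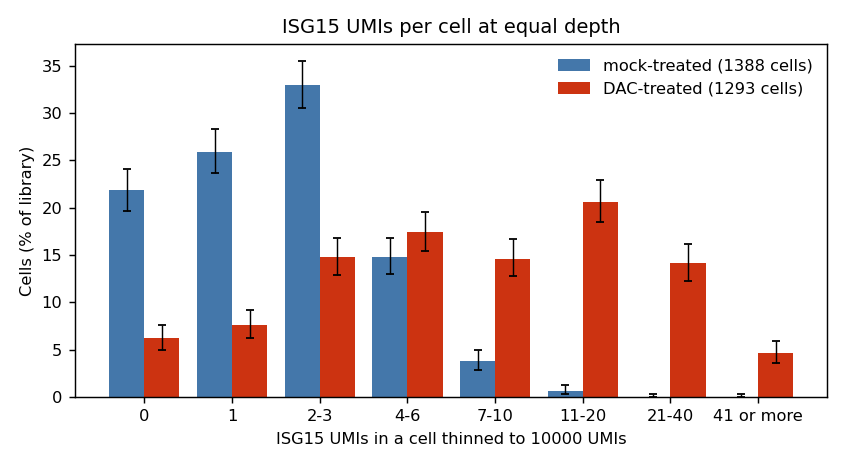
Share of cells (percent of 1388 mock-treated and 1293 DAC-treated cells) by *ISG15* UMIs after thinning each cell to 10000 UMIs, with exact 95% intervals. Mock-treated cells gathered at 0 to 6 UMIs, and DAC-treated cells were spread from 0 to over 40, with 18.8% above the highest mock-treated cell.

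*UBA7* (ENSG00000182179, chr3:49805209-49813953, minus strand) encodes the E1 enzyme, which activates ISG15. It had 0 UMIs in 1783 mock-treated cells, which allows a share of cells with a UMI of up to 0.207%, the upper bound of the exact interval. In DAC-treated cells it had 38 UMIs in 36 cells (2.06%, 1.44–2.83), or 0.644 CPM, and no cell had more than 2. Against a floor of 3 counts in the mock-treated library this is at least 10.7-fold higher, or 3.42 on the log2 scale. This limit takes the DAC-treated count as it is. The exact interval of the ratio began at a log2 value of 3.05, and without cells over 20% mitochondrial UMIs the limit against the floor was 2.47. The first enzyme of the cascade was thus at the edge of detection at this depth.

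The 36 DAC-treated cells with a *UBA7* UMI can be set beside the other 1715. *ISG15* was at 2103 CPM in the former and 1255 CPM in the latter, and *USP18* at 27.8 CPM (20.5–36.9) and 13.7 CPM (12.7–14.7). *UBE2L6* was at 27.8 and 13.8 CPM and *HERC5* at 55.1 and 31.8 CPM. *HERC6* was also higher in the former, at 13.9 CPM (8.92–20.7) and 8.15 CPM (7.42–8.92). Its intervals met, with only 24 *HERC6* UMIs in the cells with a *UBA7* UMI. The cells with a *UBA7* UMI were deeper, with a median of 47380 UMIs against 34810. Of the 38 *UBA7* UMIs, 22 came from the 456 DAC-treated cells at 20% to 50% mitochondrial UMIs (4.39% of them had a *UBA7* UMI) and 15 from the 976 at 20% or less (1.54%), and *ISG15* was at 1449 and 1301 CPM and *UBE2L6* at 17.0 and 14.1 CPM in these classes. The part of depth and of the mitochondrial share was not tested.

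*UBE2L6* (ENSG00000156587, chr11:57551656-57568284, minus strand) encodes the E2 enzyme that carries activated ISG15. It was the member that did not follow the others in sum. There were 896 UMIs in mock-treated and 837 in DAC-treated cells, or 17.9 CPM (16.8–19.2) and 14.2 CPM (13.2–15.2), a ratio of 0.790 (0.718–0.869), and after thinning it was detected in 16.5% and 12.8% of cells. Against the shift of all genes the difference was larger, with a log2 ratio of −0.57 after TMM scaling and −0.34 before. Without thinning, and so at unequal depth, the share of cells with 3 UMIs or more was 3.48% (2.68–4.44) and 4.46% (3.54–5.53). These intervals overlapped, and the highest cell had 6 and 12 UMIs. After thinning, the squared CV beyond Poisson was 0.366 in mock-treated and 2.45 in DAC-treated cells. It was 1.67 without the DAC-treated cell with the most *UBE2L6* UMIs.

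*HERC5* (ENSG00000138646, chr4:88457119-88506163, plus strand) encodes the main human E3 ligase of ISG15. Its UMIs numbered 545 in mock-treated and 1917 in DAC-treated cells, or 10.9 CPM (10.0–11.9) and 32.5 CPM (31.0–33.9), a ratio of 2.97 (2.70–3.28). It was detected in 22.0% and 39.98% of cells, or 9.73% and 22.1% after thinning. A few cells stood out. One DAC-treated cell had 101 *HERC5* UMIs, the next had 48, and 4 had 20 or more, whereas no mock-treated cell had more than 6. The squared CV beyond Poisson was 1.86 in mock-treated and 7.22 in DAC-treated cells and came to 3.19 without the single highest DAC-treated cell, and the log2 ratio was 1.57 with and 1.51 without the highest cells.

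*HERC6* (ENSG00000138642, chr4:88378739-88443097, plus strand) encodes a close relative of HERC5 and lies next to it, with 14022 bp between the genes. It was less spread, with 136 UMIs in mock-treated and 491 in DAC-treated cells, or 2.73 CPM (2.29–3.22) and 8.32 CPM (7.60–9.09), a ratio of 3.05 (2.52–3.72). It was detected in 7.12% and 19.6% of cells, and no cell had more than 6 UMIs. The ratios of *HERC5* and *HERC6* had overlapping intervals. On the far side of *HERC5*, *PYURF* had a ratio of 1.04 (0.988–1.08), and *PPM1K-DT*, before *HERC6*, was at 0 UMIs in both libraries.

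*USP18* (ENSG00000184979, chr22:18150118-18177397, plus strand) encodes the protease that removes ISG15 and, as a separate role, a negative regulator of the type I interferon receptor. There were 209 UMIs in mock-treated and 831 in DAC-treated cells, or 4.19 CPM (3.64–4.79) and 14.1 CPM (13.1–15.1), a ratio of 3.36 (2.89–3.93). It was detected in 10.0% and 24.8% of cells, and 3 UMIs or more were found in 1 mock-treated cell and 94 DAC-treated cells (5.37%). Its count is uncertain, because 77.8% of the 50-base stretches in the last 500 bases of its transcript also occur in other genes, among them *USP41* and *FAM247B*. Reads from these stretches cannot be assigned to 1 gene, and *USP41* was at 0 UMIs in both libraries. For *ISG15*, *UBA7*, *UBE2L6*, and *HERC5* this share was 0, and for *HERC6* it was 0.805% of the whole transcript.

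The nearest annotated neighbors of the other genes were also compared. *HES4* and *AGRN*, on either side of *ISG15*, had ratios of 2.18 (2.12–2.24) and 2.50 (2.29–2.72), below that of *ISG15*. *INKA1* and *TRAIP*, beside *UBA7*, had ratios of 4.04 and 1.77. *SERPING1*, beside *UBE2L6*, was lower, with a ratio of 0.575 (0.444–0.742), and *SMTNL1* had 1 and 2 UMIs. *TUBA8*, beside *USP18*, had 10 and 2 UMIs, and *FAM230D* was at 0 in both libraries.

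In most cells no enzyme gene was detected at equal depth. After thinning, 1 or more of the 5 enzyme genes was detected in 29.2% of mock-treated (26.8–31.7) and 40.7% of DAC-treated cells (38.0–43.4). For 2 or more enzyme genes the shares were 3.96% and 11.99%, and for 2 or more of all 6 genes they were 24.5% and 39.5%. Without thinning, 49.6% of mock-treated and 58.3% of DAC-treated cells had 2 or more of the 6 genes, and all 6 were found together in 6 DAC-treated cells. No mock-treated cell could have all 6, since *UBA7* had 0 UMIs there. A gene at this depth is often missed in a cell that contains its transcript. Summed over the enzyme genes, the level was 35.8 CPM in mock-treated and 69.7 CPM in DAC-treated cells, a ratio of 1.95 (1.84–2.06).

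In both libraries more cells lacked *ISG15* than an even spread of its UMIs would leave. If every cell held *ISG15* in the same share of its UMIs, 215.6 mock-treated and 103.5 DAC-treated cells would have no *ISG15* UMI, and 339 and 186 had none. All 698 DAC-treated cells of 10000 UMIs or more and 20% mitochondrial UMIs or less had *ISG15*, compared with 64.9% of those under 10000 UMIs and 72.7% of those over 50% mitochondrial UMIs. For *HERC5* 787 DAC-treated cells would have none and 1051 did, for *USP18* 1157 and 1317, and for *UBE2L6* 1154 and 1274. In mock-treated cells these numbers were 1341 and 1390 for *HERC5*, 1591 and 1604 for *USP18*, and 1139 and 1181 for *UBE2L6*. For *UBA7* the numbers were 1714 and 1715 DAC-treated cells, and 38 UMIs are too few for this count to show an uneven spread. RNA free in the droplets could give UMIs to cells that do not express a gene, and a single cell line holds no cell type that lacks these genes and could serve as a background.

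The relation between the genes over cells was described in cells of 10000 UMIs or more and 20% mitochondrial UMIs or less, of which there were 1030 mock-treated and 698 DAC-treated. Pearson's r was taken over log2(UMIs per 10000 UMIs + 1). The cells of a library share its preparation and sequencing, and r over sparse counts is held low by sampling, so r is given without a p-value. *ISG15* and the summed enzyme genes had an r of 0.140 over mock-treated cells and 0.484 over DAC-treated cells.

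By gene, r with *ISG15* over DAC-treated cells was 0.444 for *USP18*, 0.360 for *HERC6*, 0.314 for *UBE2L6*, 0.266 for *HERC5*, and 0.048 for the sparse *UBA7*. Over mock-treated cells only *UBE2L6* stood apart, with 0.145, and the other detected enzyme genes were at 0.026 to 0.031. Between enzyme genes other than *UBA7*, r ranged from −0.034 to 0.042 over mock-treated cells and from 0.223 to 0.380 over DAC-treated cells, with 0.380 for *UBE2L6* and *USP18* and 0.379 for *HERC6* and *USP18*. Thus *UBE2L6*, whose sum was lower after DAC, moved over DAC-treated cells with the genes whose sums were higher.

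Sampling lowers r more where counts are low, as in the mock-treated library, and its part in the difference between libraries was not tested. *ISG15* had an r of −0.020 with total UMIs and 0.149 with the mitochondrial share over DAC-treated cells, and of −0.025 and 0.215 over mock-treated cells. The part of the mitochondrial share in these relations was not tested.

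**Figure D3:**
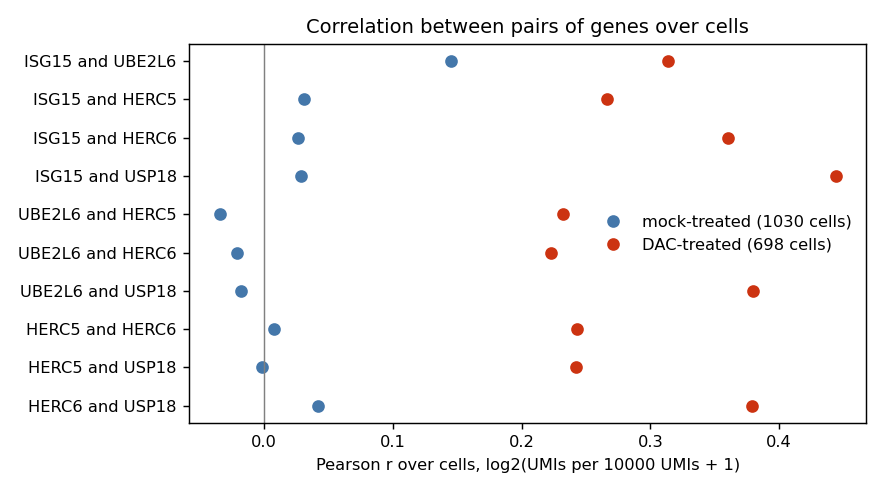
Pearson's r over cells for each pair of *ISG15*, *UBE2L6*, *HERC5*, *HERC6*, and *USP18*, in 1030 mock-treated (blue) and 698 DAC-treated (red) cells. The red point lies to the right of the blue point in each of the 10 pairs, and mock-treated pairs lie near 0 except *ISG15* with *UBE2L6* (0.145).

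Within each library, cells were then ordered by *ISG15* and divided into 4 bins of equal size, counted from the lowest. Bins of the same number are not matched in *ISG15* between libraries. In mock-treated cells *ISG15* was at 55.1, 135, 222, and 432 CPM from bin 1 to bin 4. In DAC-treated cells *ISG15* was at 246, 631, 1240, and 3155 CPM from bin 1 to bin 4. *USP18* was at 3.78, 5.93, 13.7, and 36.1 CPM in the same bins, 9.55-fold higher in the highest than in the lowest (6.62–14.2). Its lowest bin was at the level of mock-treated cells, in which *USP18* was at 3.88 to 4.89 CPM with a ratio of 1.26 (0.80–2.0).

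*HERC6* and *HERC5* followed with smaller ratios. *HERC6* was 5.89-fold higher in the highest bin of DAC-treated cells (3.84–9.40), at 17.4 against 2.96 CPM. *HERC5* was 3.51-fold higher (2.95–4.19), at 69.3 against 19.7 CPM, or 2.91-fold without the cell with 101 UMIs, and the steps between the lower 3 bins were small (19.7, 26.2, and 26.0 CPM). In mock-treated cells the ratio was 1.84 (0.966–3.62) for *HERC6* and 1.11 (0.834–1.47) for *HERC5*. Unlike *USP18*, *HERC5* was already higher in the lowest DAC-treated bin, at 19.7 CPM (16.9–23.0), than in any mock-treated bin (9.30–11.5 CPM).

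*UBE2L6* also differed over the bins, from a lower start. In DAC-treated cells it was at 7.80, 9.29, 15.3, and 24.5 CPM over the bins, a ratio of 3.14 (2.37–4.21), and in mock-treated cells at 13.7, 15.7, 19.0, and 21.7 CPM, a ratio of 1.58 (1.26–1.98). In the lowest bin of each library the DAC-treated value of 7.80 CPM (6.04–9.93) lay below the mock-treated value of 13.7 CPM (11.5–16.3). In the highest bin the intervals overlapped, at 24.5 CPM (21.3–28.1) and 21.7 CPM (18.8–24.9). *ISG15* itself differed between these bins, at 246 and 55.1 CPM in the lowest and 3155 and 432 CPM in the highest, so the bins are not matched. *UBA7* had 1, 4, 6, and 3 UMIs over the DAC-treated bins, too few to order.

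Ratios of 4 genes outside the interferon response were near 1. In DAC-treated cells the epithelial marker *EPCAM* had a ratio of 1.12 between the highest and the lowest bin, the keratin gene *KRT8* 1.09, the ubiquitin E1 gene *UBA1* 1.05, and the ubiquitin E2 gene *UBE2L3*, a relative of *UBE2L6*, 0.926. Among interferon-stimulated genes the ratios lay on either side of those of the enzyme genes, with 2.36 for *LGALS3BP*, 5.14 for *BST2*, 5.45 for *IFI27*, 11.3 for *IFI6*, 23.5 for *MX1*, and 27.1 for *IFIT1*. *IRF7*, which encodes a transcription factor of the interferon response, had a ratio of 3.08, compared with 1.43 in mock-treated cells. The median depth of the bins was 45410 to 47840 UMIs in DAC-treated and 31180 to 35010 UMIs in mock-treated cells. The median mitochondrial share was higher in each bin than in the one before, from 14.7% to 16.0% in DAC-treated and from 15.5% to 17.1% in mock-treated cells, and its part in these ratios was not tested.

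**Figure D4:**
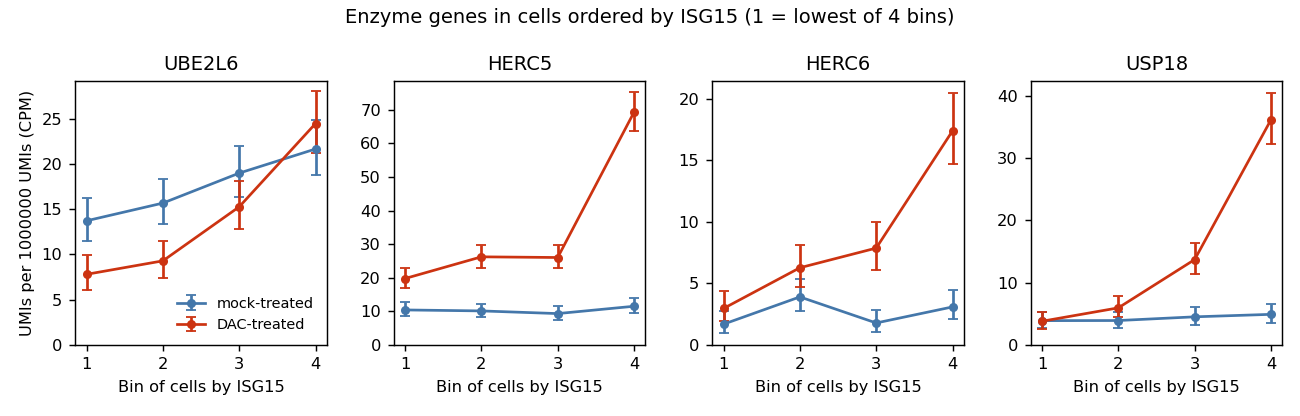
Level of each detected enzyme gene (CPM, linear axes from 0) in 4 bins of cells ordered by *ISG15*, in mock-treated (blue) and DAC-treated (red) cells, with exact 95% intervals. *USP18* began at the mock-treated level and reached 36.1 CPM, and *UBE2L6* began below the mock-treated level (7.80 against 13.7 CPM) and met it in the highest bin.

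Ranked by r with *ISG15*, 4 of the 5 enzyme genes lay near the top of all genes in DAC-treated cells. *UBA7* was found in too few cells to be ranked. Of the 13203 genes with a UMI in 5% or more of these cells, *USP18* ranked 14, *HERC6* 37, *UBE2L6* 47, and *HERC5* 66. All 4 had an r of 0.2 or more, as did 133 genes (1.01%). In mock-treated cells, of 12018 genes *UBE2L6* ranked 194, *HERC5* 3224, *USP18* 3416, and *HERC6* 3572, and none of them reached 0.2, as 50 genes (0.416%) did. These counts belong to the values by which the genes were selected, and nothing is read from them.

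The 10 genes with the highest r with *ISG15* over DAC-treated cells were *IFI6* (0.722), *IFIT1* (0.585), *IFITM3* (0.548), *IFI27* (0.527), *OAS3* (0.524), *SAMD9* (0.516), *LGALS3BP* (0.506), *SP110* (0.495), *BST2* (0.491), and *IFIH1* (0.483). All but *IFIH1*, which encodes a sensor of double-stranded RNA, were in the list of 35 interferon-stimulated genes. *IFITM3* and *LGALS3BP*, which also ranked 1 and 2 in mock-treated cells with 0.402 and 0.304, had CPM ratios between libraries of only 1.11 and 1.36.

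Many other interferon genes had higher ratios than the pathway. Of the 35 interferon-stimulated genes, none of them a member, 33 had 50 UMIs or more, of which 26 were at least 2-fold higher with DAC and 0 were 2-fold lower, compared with 19.0% and 7.34% of all genes, with a median log2 ratio of 3.07 against 0.25. After median-of-ratios or TMM scaling 25 were at least 2-fold higher. This list and those below were chosen with earlier results of these data known, so nothing is read from their counts. The highest ratios were those of *XAF1*, with 2 and 800 UMIs (338, 93.3–2797), and *IFI27*, with 234 and 51804 UMIs (187, 165–214), and the lowest were those of *IFITM2* (0.752) and *IFITM3* (1.11). The log2 ratios of *HERC5*, *HERC6*, and *USP18*, 1.57 to 1.75, lay below that median, as did 2.56 for *ISG15*. Among genes of transcription factors of the interferon response, *IRF7* had a ratio of 8.01 (7.22–8.92), *IRF9* 2.28 (1.97–2.64), and *STAT2* 1.25 (1.09–1.44). *IRF3* had a ratio of 1.40 and *IRF1* 1.32, whereas *IRF2* was lower, with 0.781 (0.661–0.922).

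Partners of the pathway, which are other ligases, proteases, and receptors and the adaptor gene *STAT2*, were also listed. Of the 10, 7 had 50 UMIs or more and 0 of them differed 2-fold, beside 19.0% of all genes at least 2-fold higher and 7.34% at least 2-fold lower, with a median log2 ratio of 0.19, near that of all genes. *TRIM25*, which encodes another E3 ligase of ISG15, had a ratio of 0.676 (0.644–0.710), and *ARIH1*, which encodes a further one, 1.04. *USP16*, a protease gene, had a ratio of 1.14, and *SKP2*, whose product is known to degrade USP18, 1.66. The type I interferon receptor genes *IFNAR1* and *IFNAR2* had ratios of 1.18 and 0.824. *ITGAL* and *ITGB2*, which encode the integrin LFA-1, a receptor for ISG15 outside cells, had under 50 UMIs, with 2 and 3 UMIs in mock-treated and 17 and 38 UMIs in DAC-treated cells, which gives ratios of 7.19 (1.71–64.1) and 10.7 (3.40–54.2).

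Genes of other ubiquitin-like systems were set beside the pathway. Of all genes, 19.0% were at least 2-fold higher and 7.34% at least 2-fold lower, and the lists are short. Of the ubiquitin and HERC relatives (*UBA1*, *UBA6*, *UBE2L3*, and *HERC1* to *HERC4*), 0 of 7 differed 2-fold, with a median log2 ratio of 0.30. The counts were 0 of 6 for the NEDD8 system (median 0.20), 0 of 5 for the UFM1 system (0.23), and 0 of 2 for the FAT10 system (0.37), whose modifier gene *UBD* was at 0 UMIs in both libraries. In the SUMO system 2 of 12 genes, *SUMO3* (2.12) and *SENP3* (2.13), were at least 2-fold higher (median 0.31), and none were after median-of-ratios or TMM scaling. *HERC3*, a relative of *HERC6*, had 87 and 121 UMIs and a ratio of 1.18 (0.885–1.57). *UBA6*, which belongs to both the ubiquitin and the FAT10 list, had a ratio of 1.19.

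**Figure D5:**
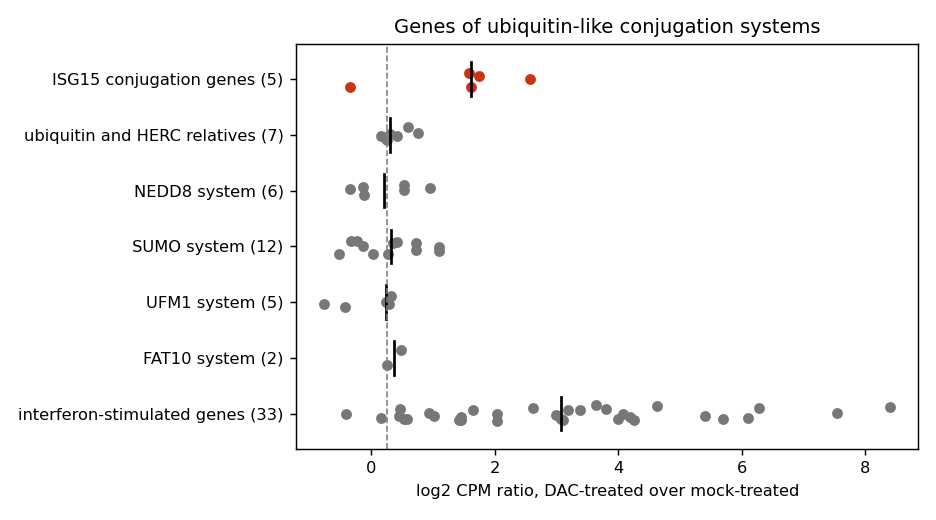
The log2 CPM ratio (DAC-treated over mock-treated) of each gene with 50 UMIs or more, by system, with the number of genes in parentheses, a black bar at the median of each list, and a dashed line at the median of all genes (0.25). *ISG15*, *HERC5*, *HERC6*, and *USP18* lay between 1.57 and 2.56 and *UBE2L6* at −0.34, whereas no gene of the other ubiquitin-like systems exceeded 1.09. The genes and lists were chosen with earlier results of these data known, so nothing is read from this contrast.

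Cells with a high mitochondrial share differed in level from the rest. In cells over 50% mitochondrial UMIs *ISG15* was at 92.2 CPM in mock-treated and 249.7 CPM in DAC-treated cells, a ratio of 2.71, compared with 6.22 in cells at 20% or less. *UBE2L6* had a ratio of 0.811 in cells at 20% or less and 0.693 between 20% and 50%, and in cells under 10000 UMIs it had 6 and 7 UMIs, too few for a direction. *USP18* had ratios of 3.47 and 2.87, and *HERC5* 3.39 and 1.99, in the same classes. Over 50% mitochondrial UMIs the order differed, with ratios of 3.97 for *HERC5* and 3.69 for *HERC6*, above that of *ISG15*, from 13 and 3 mock-treated UMIs.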

How the data were processed

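Single HCT116 cells, mock-treated or treated with DAC, were profiled by 3′ scRNA-seq with 1 library per condition. The deposited values are counts of UMIs per gene and cell, which the authors made without normalization. The submitters' processing notes name Cell Ranger and hg38, and the annotation release is not given in the sources used here. All 1783 and 1751 deposited barcodes were used, which is more than the live cells that the methods give as loaded per library. The totals were 49911689 and 59046165 UMIs. No filter on cells was applied unless stated, and doublets were not called, since doublets of 1 cell line carry no marker.

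The 6 genes and all gene lists were chosen with earlier results of these data known. The UMIs of a gene were added up per library and divided by the library total, scaled to 1000000 (CPM). Sums have exact Poisson intervals, shares exact Clopper-Pearson intervals, and ratios intervals from the exact binomial split of the UMIs, at 95% and for counting error only. With 1 library per condition and cells not being replicates, no test was made. A gene was counted as different at 2-fold or more with 50 UMIs or more over both libraries. All 6 genes were named, with the 10 genes most like *ISG15* by r, the 2 highest and 2 lowest members and the most abundant member of each list, and any member of lists of 12 or fewer, of which 1 gene is not reported here. Neighboring genes and the single highest cells were added after their values were seen. Positions are from GENCODE release 44. Python 3.11.15, numpy 2.4.6, scipy 1.17.1, pandas 2.3.3, and matplotlib 3.10.9 were used, with TMM factors from edgeR 4.0.16, and the computations were tested on simulated data. Alternatives were other scalings, cell filters, thinning depths, and measures of correlation.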

Additional observations from a re-analysis of the deposited data

How the results depend on the processing

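Alternatives were run for the log2 ratios of the 6 genes and of the summed enzyme genes, the shares of cells with *ISG15* and with 2 or more genes, the correlation of *ISG15* with the summed enzyme genes, and the shares of genes past 2-fold. These kept their direction under each of them, and the values by bin, the correlations of single genes, the ranks, and the CVs were recomputed only without the highest cell of a gene or not at all. The log2 ratio of *ISG15* (2.56) became 2.38 with median-of-ratios scaling, 2.33 with TMM, 2.60 without mitochondrial UMIs in the scaling, without cells under 10000 UMIs or over 50% mitochondrial UMIs, or without the 5% of cells with the most UMIs, and 2.64 without cells over 20% mitochondrial UMIs. That of the summed enzyme genes (0.96) became 0.78 with median-of-ratios scaling, 0.73 with TMM, 1.065 as the mean of per-cell CPM, and 1.08 without cells over 20% mitochondrial UMIs. The gain in the share of cells with *ISG15* after thinning, 15.6 percentage points, became 34.7 at 1007 UMIs, 29.8 at 5000 UMIs, 8.39 without thinning, 34.0 with 2 UMIs for detection, and 18.25 without cells over 20% mitochondrial UMIs. That for 2 or more of the 6 genes, 15.02 points, became 4.14 at 1007 UMIs, 10.3 at 5000 UMIs, 8.67 without thinning, and 6.71 with 2 UMIs for detection. The correlation of *ISG15* with the summed enzyme genes over DAC-treated cells (0.484) became 0.345 over all cells, 0.429 at up to 50% mitochondrial UMIs, and 0.333 as Spearman's rho and 0.362 as Pearson's r of thinned UMIs. Over mock-treated cells (0.140) it became 0.2065 over all cells, 0.046 as Spearman's rho, and 0.057 as Pearson's r of thinned UMIs. The share of genes at least 2-fold higher (19.0%) became 11.8% with 500 UMIs or more, and of those at least 2-fold lower (7.34%) 13.7% with 1 UMI or more. The cause of these shifts was not tested. The log2 ratio ranged from 1.34 to 1.99 for *HERC5*, 1.38 to 1.88 for *HERC6*, 1.52 to 1.85 for *USP18*, −2.02 to −0.27 for *UBE2L6*, and 2.47 to 3.46 for the lower limit of *UBA7*, where the lowest value of *UBE2L6* came from cells over 50% mitochondrial UMIs, with 10 and 4 UMIs, a class that was added after seeing the data. In those cells *USP18* had 0 and 25 UMIs, which gives a lower limit of 2.36 against the floor of 3 counts. No ratio was computed for *UBA7* in those cells or as a mean of per-cell CPM. No paired analysis was possible because there was 1 library per condition and no test.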
